A study of Mus musculus with 58 samples.

Results

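The 32 genes described here encode proteins that make and assemble ribosomes. They were chosen by name, and all 32 had a count, out of 12887 gene symbols with a count in at least 1 of the 58 cells. The set holds 5 subunits of RNA polymerase I, 3 proteins of the box C/D and 4 of the box H/ACA small nucleolar ribonucleoproteins (snoRNPs), 4 abundant nucleolar proteins, 5 small subunit assembly factors, the 3 proteins of the PeBoW complex and 8 large subunit assembly factors. RNA was counted in single bone marrow cells of wild type C57BL/6 mice, sorted into 34 long-term haematopoietic stem cells (LT-HSC) and 24 common myeloid progenitors (CMP). The LT-HSC gate was positive for cKit and Sca1 and negative for Lin, Flt3 and CD34, and the CMP gate was positive for cKit and CD34 and negative for Lin, Sca1 and CD16/32. No agent, age, sex or animal is given, and a label on all cells states passages 8 to 10 without saying what was passaged.

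RNA polymerase I transcribes the ribosomal RNA precursor in the nucleolus. SnoRNPs then modify it, box C/D particles by 2'-O-methylation and box H/ACA particles by pseudouridylation, while assembly factors fold and cut it and add ribosomal proteins to form the small and large subunits. Stem cells of adult marrow are mostly quiescent and are known for a low rate of protein synthesis, whereas myeloid progenitors divide and grow. Ribosome biogenesis genes are a classical target group of the transcription factor Myc, which binds the E-box CACGTG.

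The labels tie no cell to an animal, so a gate counts as a single sample, and no difference below has a replicate check or a test. LT-HSC were also taken apart by the number in their titles, cells 1 to 16 and cells 17 to 34. No label says what this division is, and it was first made in earlier work after values had been seen. Levels are CPM, a gene's counts scaled to a total of 1000000 in a cell or in all cells of a group added together, which is a share and not a number of transcripts per cell. Intervals are 95% intervals for counting error only and would be too narrow if the counts are reads, which the sources used here do not settle. A log2 ratio compares the pooled CPM of 2 groups after 0.5 was added to each count, and a negative value means a lower level in the group named first.

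The median total was 236774 counts in LT-HSC (45022 to 860553) and 290977 in CMP (88329 to 706184), and the median number of genes with a count was 4147 and 6855.5. Summed stem cell markers had a median of 2158 CPM in LT-HSC 1 to 16, 881 in LT-HSC 17 to 34 and 112 in CMP, and summed myeloid markers 627, 979 and 7051 CPM, in the direction of the labels. Mature neutrophil markers, 9 of 9 of them counted in each group, stood at medians of 310, 348 and 530 CPM. S100a8, a neutrophil gene, had a count in all 58 cells with a median of 40 to 52 counts, so a few counts of a gene in a cell may be free RNA. B cell markers summed to 58.6, 92.3 and 48.4 CPM over the cells of each group, with single LT-HSC up to 500.3 CPM, although Ms4a1 and Pax5 had no count in any group. Cd3e, Cd3d and Cd3g of T cells had no count in any group, while Nkg7, a gene of NK cells and granules, stood at 2.35, 530.1 and 427 CPM. The part of other cell types in the results below was not tested. Xist, which marks female cells, had no count in any LT-HSC or in CMP 1 and 2, and a count in the other 22 CMP. Sex and gate therefore cannot be told apart, except against CMP 1 and 2, and values against these 2 cells are given beside many of the results. CMP 1 and 2 held 1288026 of the 7062737 CMP counts.

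Sequence upstream of the start site is shown for 4 of the 32 genes. They were taken from those with a motif match close to the start and no annotated exon in the window, so that they hold a match follows from the choice. Urb2 and Gar1 had large differences between groups that did not rest on 1 high cell, and Nolc1 was lower in LT-HSC against every CMP reference used. Nop2, the only one of the 27 genes with a RefSeq window to hold an E-box, hardly differed in pooled level. Each line gives 90 bases on the strand of the gene, 5′ to 3′, ending before the first annotated exon, from RefSeq on GRCm38.p6, and capitals mark matches to the motifs named below.
Gar1, chr3:129831397-129831486, minus strand: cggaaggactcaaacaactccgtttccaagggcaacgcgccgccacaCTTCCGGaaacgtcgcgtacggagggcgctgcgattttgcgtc
Nolc1, chr19:46075757-46075846, plus strand: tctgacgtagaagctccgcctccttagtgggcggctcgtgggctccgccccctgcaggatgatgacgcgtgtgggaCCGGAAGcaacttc
Nop2, chr6:125131793-125131882, plus strand: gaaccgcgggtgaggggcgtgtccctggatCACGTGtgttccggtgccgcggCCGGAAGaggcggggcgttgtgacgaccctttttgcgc
Urb2, chr8:124021407-124021496, plus strand: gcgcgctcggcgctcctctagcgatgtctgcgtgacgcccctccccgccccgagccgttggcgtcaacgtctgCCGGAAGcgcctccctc

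The capitals mark CCGGAAG, a core that ETS family factors can bind, on the gene's strand or, in Gar1, on the other, and in Nop2 also CACGTG. RefSeq windows of 250 bases before the start matched 27 of the 32 genes. On either strand CCGGAAG was in 7 of the 27, those of Gar1, Nhp2, Nip7, Nolc1, Nop2, Polr1c and Urb2, and in 6.91% of 32851 windows of the same length from all genes. Its first base lay 14 bases before the start in Nolc1, 17 in Urb2, 23 in Nhp2, 38 in Nop2, 42 in Polr1c, 43 in Gar1 and 103 in Nip7. These 7 genes did not share a pattern of levels: Gar1 and Nhp2 were at least 2-fold lower than in CMP in LT-HSC 1 to 16 alone, Nolc1 and Urb2 in both blocks, Polr1c stood at least 2-fold above CMP in LT-HSC 1 to 16, and Nip7 and Nop2 stayed within 2-fold. Without LT-HSC 13, Polr1c also stayed within 2-fold there. The E-box CACGTG was in 1 of 27, Nop2, at 60 bases before the start, against 6.02% of all windows. The palindromic NRF1 motif was in 2 of 27, Rrp9 and Wdr12 (3.74% of all windows), TATAAA in 3 of 27 (12.4%) and CCAAT in 7 of 27 (33.8%). No 2 of the printed matches overlap. GC content had a median of 56.4% in the windows of the set and 52.4% in all windows. A match is a run of letters, not a bound site.

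The set as a whole took a smaller share of the RNA in LT-HSC than in CMP. Its summed pooled level was 5999 CPM in LT-HSC 1 to 16, 6692 in LT-HSC 17 to 34 and 8814 in CMP, or 0.600%, 0.669% and 0.881% of all counts. By cell the sum ran from 3562 through a median of 6102 to 9471 CPM in LT-HSC 1 to 16. It ran from 3203 through 6709 to 10504 CPM in LT-HSC 17 to 34 and from 5331 through 7772 to 12593 CPM in CMP. The groups overlapped: 27 of 34 LT-HSC lay below the CMP median, 13 LT-HSC lay below every CMP, and 5 of 24 CMP lay above every LT-HSC. Npm1 and Nop10 gave 41.7%, 40.4% and 39.4% of the set's counts, and without them the medians by cell were 3469, 3685 and 4907 CPM. All LT-HSC together stood at 6454 CPM, and CMP 1 and 2 at 8230.4 CPM.

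More of the 32 genes were caught in each CMP. A median of 21.5 genes (16 to 27) had a count in LT-HSC 1 to 16, 21 (12 to 27) in LT-HSC 17 to 34 and 30 (25 to 32) in CMP. With each cell thinned to 97978 counts, which left out 6 shallower cells (2 of each group), the medians were 19, 17.5 and 27 of 32. Thinned CMP also held more genes of any kind, a median of 5509 against 3391 and 3036.5 in the LT-HSC blocks.

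**Figure D1:**
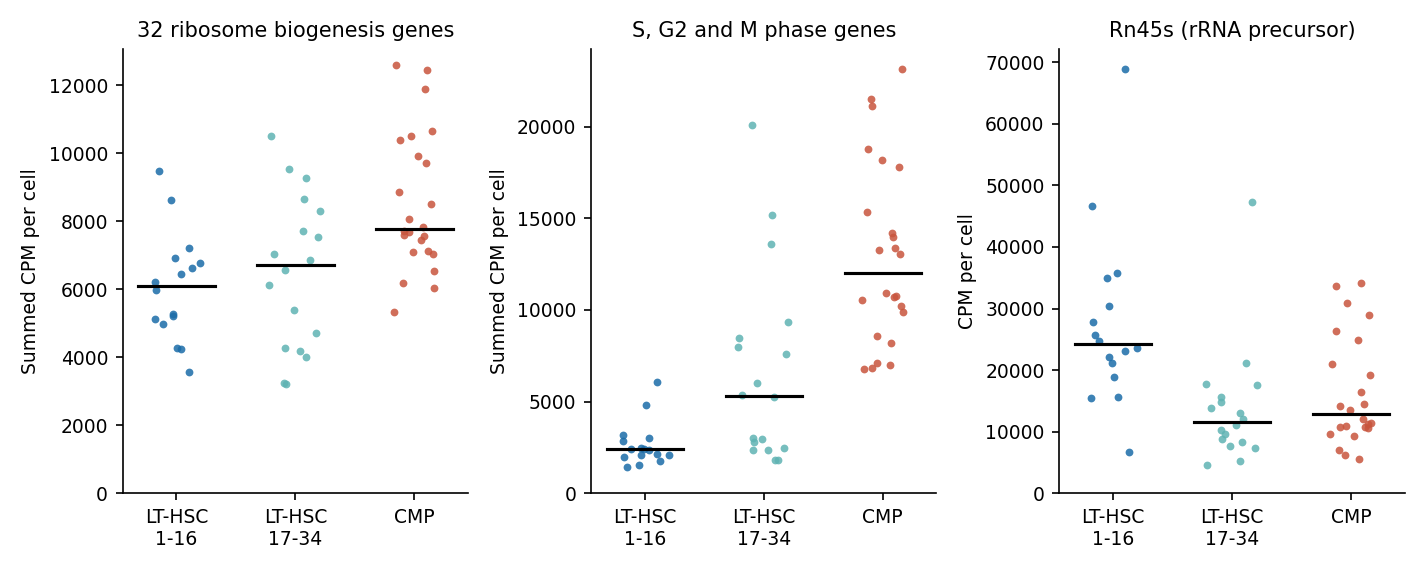
Levels by cell in LT-HSC 1 to 16, LT-HSC 17 to 34 and CMP, each point a cell and each bar a group's median. Left, summed CPM of the 32 genes, with medians of 6102, 6709 and 7772; middle, summed CPM of S, G2 and M phase genes, with medians of 2383, 5317 and 11998; right, CPM of the rRNA precursor Rn45s. The groups overlap widely on the left, while in the middle every cell of LT-HSC 1 to 16 lies below every CMP.

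The difference was uneven from gene to gene. Of the 32, 7 were at least 2-fold lower in LT-HSC than in CMP (Polr1a, Polr1b, Fbl, Nolc1, Rrs1, Mrto4 and Urb2), 1 was at least 2-fold higher (Rrp12) and 24 lay between. Among the 10937 genes with at least 20 counts, 28.1% were at least 2-fold lower and 22.7% at least 2-fold higher, so neither count exceeded the background. The median log2 ratio was −0.40 over the set and −0.13 over all genes. Most of the set lay moderately below CMP: the interval lay below 0 for 23 of 32 genes and above 0 for 4, against 46.2% and 38.6% of all genes. The ratio of 21 of the 32 was below the median of all genes. With all cells thinned to the same total 2 of 32 were at least 2-fold lower (28.5% of all genes), and 3 when cells were weighted equally (27.3%).

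By block, 11 of 32 were at least 2-fold lower in LT-HSC 1 to 16 than in CMP (all genes 37.3%) and 1 at least 2-fold higher (22.7%). In LT-HSC 17 to 34 against CMP, 8 were at least 2-fold lower (34.5%) and 1 higher (20%). The medians were −0.61 and −0.32, against −0.36 and −0.24 over all genes. These comparisons share the CMP cells. Against CMP 1 and 2, which also stand apart in depth, 4 of 32 LT-HSC levels were at least 2-fold lower (22%) and 8 higher (46.2%), with a median of −0.28 against 0.70 over all genes.

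**Figure D2:**
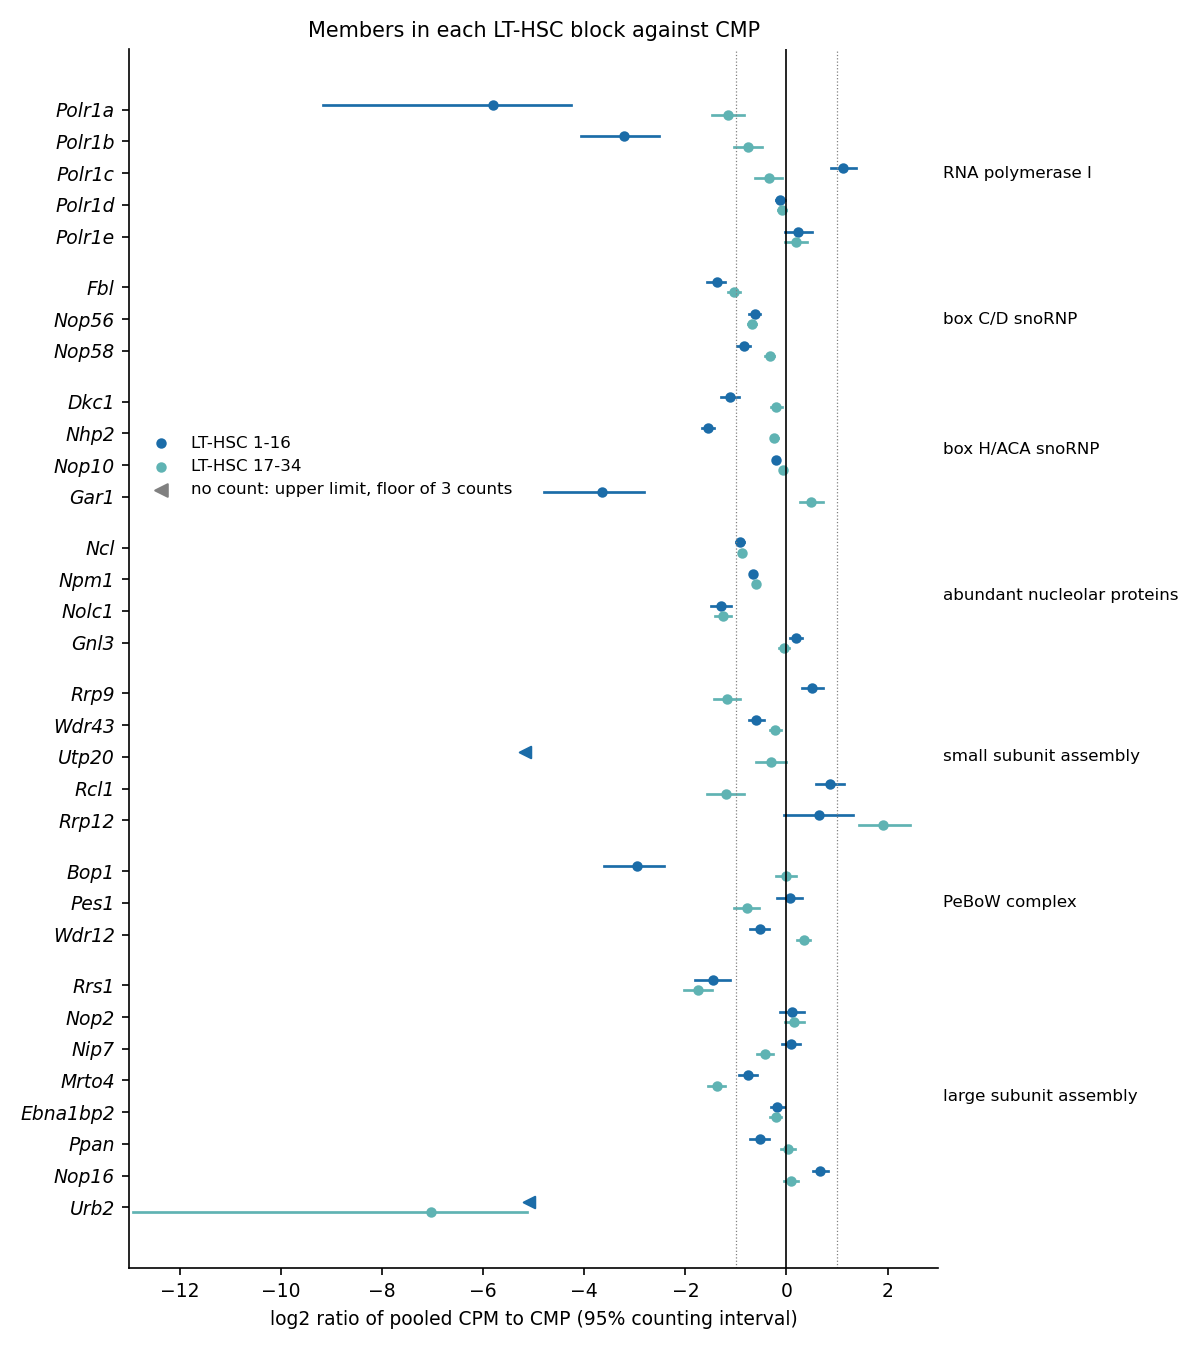
Log2 ratio of pooled CPM in LT-HSC 1 to 16 (dark) and LT-HSC 17 to 34 (light) to CMP for each of the 32 genes, ordered by role, with 95% counting intervals; dotted lines mark 2-fold and triangles mark genes without a count, set to a floor of 3 counts. Abundant nucleolar and box C/D genes sit close together for both blocks, while Polr1a, Polr1b, Gar1, Utp20 and Bop1 lie far lower in LT-HSC 1 to 16.

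RNA polymerase I genes split. Polr1d and Polr1c encode the subunits shared with RNA polymerase III, Polr1a and Polr1b the pair that forms the catalytic core, and Polr1e a subunit of the dimer that helps initiation. Polr1d, the most counted, did not differ by more than 10% between any of the groups: it stood at 379 CPM in LT-HSC 1 to 16 (interval 359 to 401), 386 in LT-HSC 17 to 34 (372 to 402) and 412 in CMP (397 to 427). Its cells ran from 4.93 through 375 to 1043 CPM, from 8.70 through 346 to 1533 CPM and from 87.8 through 358 to 877 CPM, so medians were alike and the lowest cells were all LT-HSC, 11 of which lay below every CMP. Polr1d had, against CMP 1 and 2 alone, a log2 ratio of −0.82 (678 CPM in those cells).

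Polr1a, on chromosome 6 (71909053 to 71984935, plus strand, mm10), was nearly uncounted in LT-HSC 1 to 16. There it had 2 counts, both in LT-HSC 11, against 120 counts in 4 cells of LT-HSC 17 to 34 and 289 counts in 15 of 24 CMP. The pooled levels were 0.586, 18.4 and 40.9 CPM, and the log2 ratio to CMP was −5.81 (interval −9.18 to −4.26) for the first block and −1.15 (−1.47 to −0.84) for the second. LT-HSC 29 held 81.7% of the counts of its block, and without it the second ratio was −3.53, the ratio between blocks moved from −4.66 to −2.27 and that of all LT-HSC to CMP from −1.73 to −4.03. The highest cell reached 28.1, 557 and 308 CPM, with medians of 0, 0 and 3.89. CMP 1 and 2 held 1 Polr1a count between them, so against those cells the ratio turned to 3.40 (interval 1.48 to 9.30).

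Polr1b stood at 4.69, 26.2 and 44.6 CPM, with a count in 6 of 16, 5 of 18 and 20 of 24 cells. Its cells reached 30.2, 403 and 238 CPM at most, around medians of 0 in both LT-HSC blocks and 11 in CMP. The log2 ratio to CMP was −3.21 (interval −4.07 to −2.53) for the first block and −0.76 (−1.04 to −0.49) for the second, and −1.24 for all LT-HSC. Single cells mattered here too: without LT-HSC 15 the first was −4.21, and without LT-HSC 30 the second was −1.70 and that of all LT-HSC −2.08. Between blocks the ratio was −2.44, or −3.45 without LT-HSC 15. LT-HSC 30 held 50.3% of the counts of its block, where 3 cells had at least 10 counts. Without it LT-HSC 17 to 34 stood at 13.7 CPM, nearer to the 4.69 CPM of LT-HSC 1 to 16.

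Polr1c went the other way. It stood at 86.2 CPM for LT-HSC 1 to 16 (interval 76.6 to 96.7), 30.98 for LT-HSC 17 to 34 (26.9 to 35.6) and 39.5 in CMP (35.0 to 44.4), a log2 ratio between blocks of 1.48, or 2.06 without LT-HSC 33. The cells of LT-HSC 1 to 16 ran from 0 through 9.03 to 435 CPM, those of LT-HSC 17 to 34 from 0 through 0.965 to 157 CPM, and CMP from 0 through 36.9 to 122 CPM. The higher pooled level of the first block thus came from a few high cells, 5 with at least 10 counts, while its median cell lay below the median CMP. Without LT-HSC 33 the ratio of LT-HSC 17 to 34 to CMP moved from −0.35 to −0.94. With every cell kept, that of all LT-HSC was 0.34 to all CMP and 1.18 to CMP 1 and 2. Without LT-HSC 13 the ratio of LT-HSC 1 to 16 to CMP moved from 1.13 to 0.67, within 2-fold. That of all LT-HSC to CMP then moved from 0.34 to 0.07. Polr1e showed the same kind of spread at even pooled levels of 55.7, 54.1 and 47.3 CPM: a count in only 4 of 16, 6 of 18 and 19 of 24 cells, medians of 0, 0 and 7.29 CPM and highest cells of 218, 206 and 207 CPM. Without LT-HSC 34 its ratio of LT-HSC 17 to 34 to CMP moved from 0.19 to −0.43, and that between blocks from 0.04 to 0.67. The ratio of all LT-HSC turned from 0.21 to −0.38 with CMP 1 and 2, at 70.7 CPM, as the reference.

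**Figure D3:**
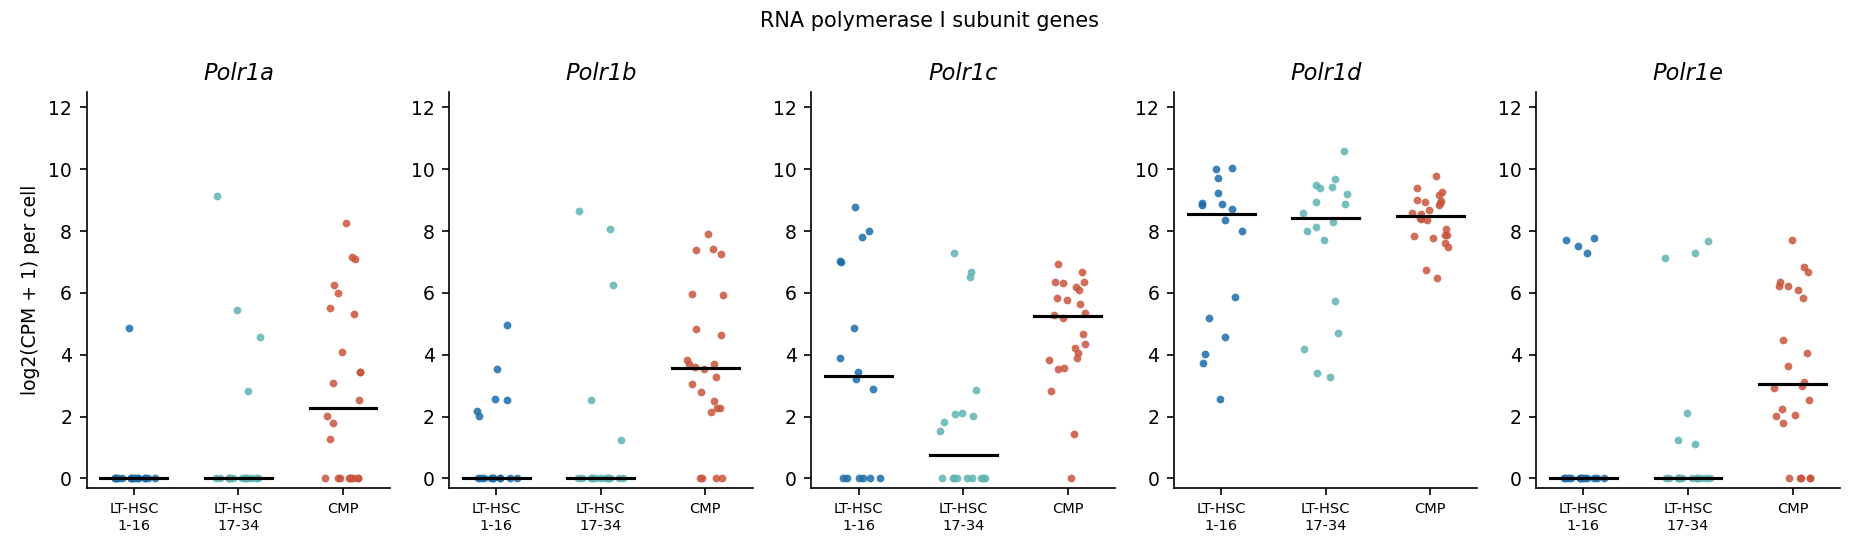
The 5 RNA polymerase I genes by cell, as log2 of CPM plus 1, with a bar at each group's median. Polr1d is counted in all 58 cells at medians of 375, 346 and 358 CPM, whereas Polr1a and Polr1b are at 0 in most LT-HSC and counted in 15 and 20 of 24 CMP.

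The box C/D genes were lower in both LT-HSC blocks. Fbl, the methyltransferase of the particle, stood at 89.1, 113 and 233 CPM, 2.22-fold lower in all LT-HSC than in CMP. It had at least 10 counts in 4 of 16, 5 of 18 and 21 of 24 cells, and 23 of 34 LT-HSC lay below every CMP. Its log2 ratios to CMP were −1.38 and −1.04, and against CMP 1 and 2 that of all LT-HSC was −1.64. LT-HSC 10 held 46.4% of the counts of its block, and without that cell the first ratio was −2.14 and the one between blocks moved from −0.34 to −1.10.

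Nop56 and Nop58 are the paired scaffold proteins of the particle. Nop56 was at 294, 285 and 454 CPM, with cells from 13.96 through 321 to 589.9 CPM, from 0 through 261 to 886 CPM and from 68.5 through 435 to 804 CPM. Nop58 was at 201, 287 and 361 CPM, with cells from 0 through 137 to 515 CPM, from 0 through 234 to 569.7 CPM and from 15.9 through 318 to 882 CPM. The LT-HSC medians were below those of CMP for both genes and the ranges overlapped. In all LT-HSC against CMP the log2 ratios were −0.66 (interval −0.73 to −0.59) and −0.49 (−0.57 to −0.41), and against CMP 1 and 2 they were −0.69 and −0.20. The 2 genes carry snoRNA genes inside them, 5 in Nop56 and 4 in Nop58, of 21 inside 7 genes of the set, and reads of such RNAs would be counted with the host where they fall in its exons.

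Of the 4 box H/ACA genes, Gar1 and Nhp2 were at least 2-fold lower in LT-HSC 1 to 16 than in LT-HSC 17 to 34, with overlap between cells. Their median log2 ratio was −1.12 between LT-HSC 1 to 16 and LT-HSC 17 to 34, and 0 of the 4 was higher in the first block. Gar1, a protein of the mature particle, on chromosome 3 (129824912 to 129831396, minus strand), had 10 counts over 5 of 16 cells in LT-HSC 1 to 16, 353 over 9 of 18 in LT-HSC 17 to 34 and 271 over 23 of 24 in CMP. By cell it ran from 0 through 0 to 14.8 CPM, from 0 through 0.60 to 257 CPM and from 0 through 23.2 to 172 CPM. The first block was low in every cell, the second mixed cells at 0 with 3 cells above every CMP. Pooled, these were 2.93, 54.1 and 38.4 CPM, a log2 ratio between blocks of −4.14 (interval −5.28 to −3.31) and to CMP of −3.64 (−4.79 to −2.81) and 0.50 (0.26 to 0.73). Without LT-HSC 34 the ratio of LT-HSC 17 to 34 to CMP was 0.005 and that between blocks −3.65. The ratio of all LT-HSC to CMP then moved from −0.07 to −0.60. CMP 1 and 2 held 11 Gar1 counts, 8.54 CPM, and the ratio of all LT-HSC to them was 2.04.

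Nhp2, a core protein of the particle, was counted in 56 of 58 cells. It stood at 213 CPM in LT-HSC 1 to 16 (interval 198 to 229), 529 in LT-HSC 17 to 34 (512 to 547) and 625 in CMP (606 to 643). Cells ran from 0 through 167 to 508 CPM, from 0 through 442 to 1037 CPM and from 48.9 through 561 to 1328 CPM, so the first block was shifted as a whole. Its log2 ratio between blocks was −1.31 (−1.43 to −1.20). Dkc1, the pseudouridine synthase, which lies on the X chromosome, was at 91.2, 173 and 198 CPM, with ratios of −1.12 (first block to CMP), −0.20 (second block to CMP) and −0.92 between blocks. Nop10, the smallest core protein, hardly differed: 1192, 1329 and 1384 CPM, with cells from 262 through 1259 to 2892 CPM, from 90.5 through 1231 to 3206 CPM and from 792 through 1280.4 to 2585 CPM. Medians were alike and 10 of 34 LT-HSC lay below every CMP. Nop10 had, against CMP 1 and 2, a log2 ratio of 0.39.

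**Figure D4:**
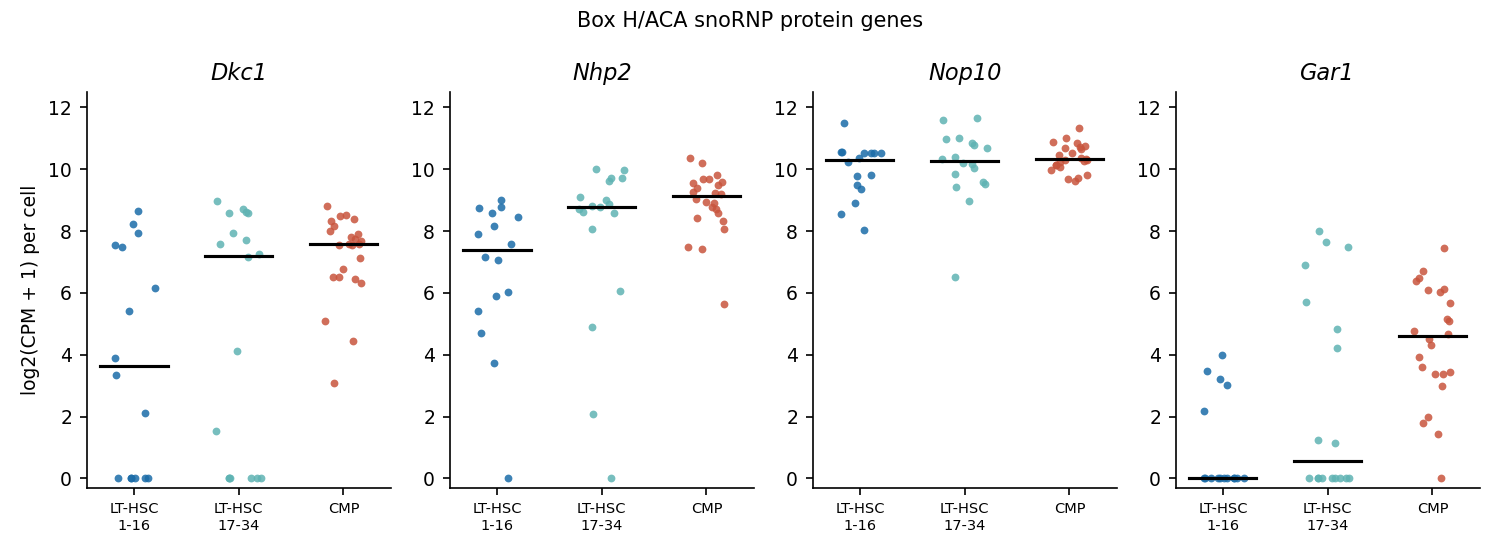
The 4 box H/ACA genes by cell, as log2 of CPM plus 1, with a bar at each group's median. Gar1 stays at or below 14.8 CPM in LT-HSC 1 to 16 and reaches 257 CPM in LT-HSC 17 to 34, Nhp2 is shifted down in LT-HSC 1 to 16 (median 167 CPM against 442 and 561), and Nop10 is at similar levels in the 3 groups.

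The abundant nucleolar proteins were lower in LT-HSC by nearly the same amount in both blocks, with Gnl3 the exception. Npm1, nucleophosmin, which chaperones nucleolar proteins and histones, stood at 1311 CPM (interval 1273 to 1350.4), 1376 (1348 to 1405) and 2086 (2052 to 2119.8). By cell it ran from 487 through 1264 to 2247 CPM, from 111 through 1178 to 2389.8 CPM and from 1306 through 2073 to 3231 CPM. This was among the cleanest separations in the set: 32 of 34 LT-HSC lay below the CMP median, 18 below every CMP, and 7 of 24 CMP above every LT-HSC. The log2 ratios to CMP were −0.67 and −0.60, between blocks −0.07, and against CMP 1 and 2 that of all LT-HSC was −0.60. Npm1 has processed copies in the genome, which a counter can treat in different ways, so its level is uncertain.

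Ncl, nucleolin, which binds the nascent rRNA, stood at 493, 508 and 930.1 CPM. Its cells ran from 18.7 through 552 to 1480.0 CPM, from 4.49 through 431 to 1193 CPM and from 175 through 883 to 2075 CPM, and 28 of 34 LT-HSC lay below the CMP median. The ratios to CMP were −0.92 and −0.87 and that between blocks −0.04 (interval −0.13 to 0.04). Nolc1, a chaperone of snoRNPs, was at 74.2, 76.7 and 183 CPM, with ratios of −1.30 (first block to CMP) and −1.25 (second block to CMP), and −1.34 for all LT-HSC against CMP 1 and 2. Without LT-HSC 15, which held 51.8% of its block's Nolc1 counts, the first moved to −2.22 and the ratio between blocks from −0.05 to −0.96. Gnl3, nucleostemin, a nucleolar GTPase named for its level in stem cells, was at 245, 208 and 215 CPM. Its cells ran from 0 through 252 to 784 CPM, from 0 through 139 to 849 CPM and from 29.2 through 213 to 564 CPM, and the log2 ratio of all LT-HSC to CMP was 0.04 (interval −0.06 to 0.13).

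Small subunit factors had no common direction. Utp20, a scaffold of the small subunit processome, had no count in the 16 cells of LT-HSC 1 to 16, against 167 counts in LT-HSC 17 to 34 and 223 in 14 of 24 CMP. At a floor of 3 counts over the block it was at least 35.9-fold lower than in CMP and at least 29.1-fold lower than in LT-HSC 17 to 34. LT-HSC 30 held 74.9% of the counts of the second block, and without it the ratio of that block to CMP moved from −0.30 to −2.21, that of all LT-HSC from −0.91 to −2.84 and the bound between blocks to 7.70-fold. Without CMP 3 the bound against CMP was 22.9-fold. Levels by cell reached 386 CPM in the second block and 189.8 in CMP, around medians of 0 and 2.79. In CMP 1 and 2 there were 4 counts, and the ratio of all LT-HSC to them turned to 2.27.

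Rrp9 of the U3 snoRNP and Rcl1, related to RNA cyclases, were higher in LT-HSC 1 to 16 than in LT-HSC 17 to 34. Rrp9 was at 93.5, 29.1 and 65.7 CPM, with cells from 0 through 13.4 to 337 CPM, from 0 through 0 to 264 CPM and from 0 through 19.7 to 234 CPM. Rcl1 was at 59.2, 14.1 and 32.4 CPM, with cells from 0 through 0 to 267 CPM, from 0 through 0 to 247 CPM and from 0 through 13.3 to 157 CPM. In both genes the CMP median was the highest although single LT-HSC reached higher. Their log2 ratios between blocks were 1.68 and 2.07, and to CMP 0.51 and 0.87 in the first block and −1.17 and −1.20 in the second. LT-HSC 30 held 87.0% of the Rcl1 counts of its block, and without it the ratio of that block to CMP was −4.01 and that between blocks 4.88. Without LT-HSC 32 those of Rrp9 were −1.87 and 2.38. With CMP 1 and 2 as reference the ratio of Rrp9 for all LT-HSC moved from −0.36 to −1.65, and that of Rcl1 turned from −0.13 to 0.15. CMP 1 held 35.6% of the CMP counts of Rrp9. Without that cell the Rrp9 ratio to CMP was 0.12 for all LT-HSC and 0.99 for the first block.

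Rrp12, a factor of small subunit maturation and export, was the only gene of the set at least 2-fold higher in all LT-HSC than in CMP, and that rested on 1 cell. It stood at 9.97, 24.2 and 6.37 CPM, with a count in 4 of 16, 6 of 18 and 7 of 24 cells, a median of 0 in each group and highest cells of 111, 417 and 82.0 CPM. LT-HSC 24 held 82.3% of the counts of its block: without it the ratio of all LT-HSC to CMP moved from 1.59 to 0.01 and that of LT-HSC 17 to 34 from 1.92 to −0.49. LT-HSC 4 held 91.2% in the other block, and without it the ratio to CMP moved from 0.65 to −2.53 and that between blocks from −1.26 to −4.44. With LT-HSC 24 left out instead, LT-HSC 17 to 34 stood at 4.51 CPM, below the 9.97 CPM of LT-HSC 1 to 16. The direction between blocks thus turned with 1 cell. The Rrp12 ratio of all LT-HSC to CMP 1 and 2, which held 2 counts, was 3.32 (interval 1.77 to 6.69). Wdr43, which acts early on the small subunit, was at 141, 182 and 213 CPM with a ratio of −0.34 for all LT-HSC.

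The PeBoW complex matures the large subunit rRNA, and its 3 genes differed from each other. Bop1 had 26 counts in 2 of 16 cells of LT-HSC 1 to 16, 392 in 11 of 18 and 426 in 21 of 24, or 7.62, 60.1 and 60.3 CPM. Its ratio to CMP was −2.96 (interval −3.61 to −2.41) in the first block, −4.41 without LT-HSC 11, and the ratio between blocks was −2.95, or −4.40 without that cell. CMP 19 held 45.3% of the CMP counts, and without it the ratio of LT-HSC 17 to 34 was 0.77 in place of −0.005 and that of all LT-HSC 0.26 in place of −0.52. Pes1 was at 56.6, 31.4 and 54.2 CPM. Wdr12 was at 88.0, 161 and 127 CPM, with cells from 0 through 15.7 to 278 CPM, from 0 through 73.1 to 1325 CPM and from 3.44 through 124 to 543 CPM. Against CMP 1 and 2, whose levels were 34.9, 8.54 and 47.4 CPM, all 3 ratios of LT-HSC were positive, at 0.25, 2.17 and 1.51. The median of all genes against these 2 cells was 0.70, above the ratio of Bop1.

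Among the large subunit factors, Urb2 was nearly absent from LT-HSC. Urb2 acts early on the large subunit and lies on chromosome 8 (124021508 to 124048505, plus strand). It had no count in LT-HSC 1 to 16, 1 count in the other block, in LT-HSC 23, and 213 counts in CMP, where 22 of 24 cells had a count and 6 at least 10. After thinning, 0 of 14, 0 of 16 and 14 of 22 cells had a count. By cell CMP ran from 0 through 9.87 to 223 CPM, and 17 of 24 CMP lay above every LT-HSC. The pooled CMP level was 30.2 CPM (interval 26.2 to 34.5), at least 34.3-fold above LT-HSC 1 to 16 at the floor of 3 counts, and the log2 ratio of LT-HSC 17 to 34 was −7.04 (interval −12.93 to −5.13). CMP 1 and 2 held 53 Urb2 counts, 41.1 CPM, and the other 22 CMP stood at 27.7 CPM. Pooled, CMP with and without Xist counts thus both lay above LT-HSC. The level of CMP 1 and 2 rested on CMP 1, at 73.6 CPM. CMP 2 stood at 1.72 CPM, below LT-HSC 23 at 4.49 CPM. The median CMP had only 2 counts, so the gene is counted thinly even there, and a gene on the other strand, Gm45732, overlaps an exon of Urb2.

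Rrs1, which helps load the small 5S particle, was lower in both blocks, at 24.6, 20.2 and 67.8 CPM. It had a count in 7 of 16, 5 of 18 and 20 of 24 cells, medians of 0, 0 and 15.1 CPM and highest cells of 293, 139 and 332 CPM. Its log2 ratios to CMP were −1.45 and −1.74, and −1.64 for all LT-HSC. Without LT-HSC 9, which held 72.6% of the first block's counts, the first was −3.21 and the ratio between blocks moved from 0.29 to −1.47. Without LT-HSC 33 the second was −3.02 and that of all LT-HSC −2.23. For CMP 1 and 2 as the reference it was −0.38 (interval −0.88 to 0.19).

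Mrto4, a factor related to the stalk protein P0, was at 95.9, 62.6 and 163 CPM, with cells from 0 through 7.42 to 686 CPM, from 0 through 0 to 517 CPM and from 21.7 through 137 to 507 CPM. In 24 of 34 LT-HSC it lay below every CMP, although 2 LT-HSC lay above every CMP, and the log2 ratios to CMP were −0.76 and −1.38. To CMP 1 and 2 the ratio of all LT-HSC was −0.35. Nop16 was the large subunit gene with the highest ratio in LT-HSC 1 to 16: it stood at 201, 135 and 126 CPM, a log2 ratio to CMP of 0.67 (interval 0.52 to 0.81). Its cells ran from 3.58 through 43.8 to 842 CPM, from 0 through 101 to 486 CPM and from 12.4 through 116 to 485 CPM, so the median cell of that block was the lowest of the 3 groups although its pool was the highest.

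The other 4 large subunit genes differed less. Nop2, an rRNA methyltransferase, was at 66.0, 67.9 and 60.9 CPM, with all 3 ratios to CMP between 0.12 and 0.16. For all LT-HSC against CMP 1 and 2 it was 0.13. Without LT-HSC 8 the ratio of the first block was −0.40. Without LT-HSC 30 that of the second was −0.34 and that of all LT-HSC −0.16. By cell, 14 of 34 LT-HSC lay below every CMP for Nop2 and 2 above every CMP. Ebna1bp2 was at 209.7, 205 and 238 CPM, a ratio of all LT-HSC of −0.20, and −0.21 against CMP 1 and 2. Nip7 was at 122, 84.96 and 115 CPM, and without LT-HSC 21 its ratio of the second block to CMP moved from −0.43 to −1.12 and that between blocks from 0.52 to 1.21. For all LT-HSC the Nip7 ratio was −0.23, and −0.86 to CMP 1 and 2. Ppan was at 91.2, 135 and 131 CPM, but CMP 1 and 2 held only 13 counts, 10.1 CPM, and the ratio of all LT-HSC to them was 3.51 in place of −0.13. For 11 genes of the set (Polr1a, Nop56, Dkc1, Nhp2, Gnl3, Rrp9, Wdr43, Bop1, Pes1, Wdr12 and Urb2) an exon overlaps a gene on the other strand, and whether the counting used strand is not given in the sources used here.

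Between the 2 LT-HSC blocks the set as a whole was nearly level while cell cycle genes were not. Of the 32, 7 were at least 2-fold lower in LT-HSC 1 to 16 than in LT-HSC 17 to 34 (all genes 28%) and 3 at least 2-fold higher (28.1%), with a median log2 ratio of −0.058 against 0.019 over all genes. With ribosomal protein genes left out of the totals the median turned to 0.055 against 0.13 over all genes. For S phase genes the median was −2.05 with 38 of 42 at least 2-fold lower in LT-HSC 1 to 16, and for G2 and M phase genes −2.77 with 41 of 52. Summed S, G2 and M phase genes had medians by cell of 2383, 5317 and 11998 CPM, and all 16 cells of LT-HSC 1 to 16 lay below every CMP. In the sum of the 32 genes, only 7 of those 16 did. The set's genes that did differ between blocks, Gar1, Nhp2, Bop1, Polr1a, Polr1b, Utp20 and Rrp12 lower and Rcl1, Rrp9 and Polr1c higher in LT-HSC 1 to 16, were joined by 22 others within 2-fold. Of these, Rrp12 was lower in LT-HSC 1 to 16 only with LT-HSC 24 included. Whether cell cycle state had a part in any of these differences was not tested.

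The relation of the set's summed level to S phase genes was positive in LT-HSC 17 to 34 and CMP and weakly negative in LT-HSC 1 to 16. This difference was not tested. Pearson's r was 0.55 over 18 cells of LT-HSC 17 to 34 (Spearman's rho 0.49, r without the 2 farthest cells 0.52), 0.39 over 24 CMP (rho 0.40, then 0.35) and −0.10 over 16 cells of LT-HSC 1 to 16 (rho −0.24, then −0.33). With G2 and M phase genes r was −0.18 in LT-HSC 17 to 34 (rho 0.21), −0.29 in CMP (rho −0.28) and −0.48 in LT-HSC 1 to 16 (rho −0.31). Without the 2 farthest cells these were 0.33, −0.087 and −0.32, so the first rests on those cells. These are descriptions over cells of 1 sample each that share depth and composition.

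Ribosomal RNA and ribosomal protein genes did not move with the set. Rn45s, the precursor made by RNA polymerase I, stood at 26636 CPM in LT-HSC 1 to 16, 11405 in LT-HSC 17 to 34 and 17098 in CMP, and rRNA caught by an oligo(dT) primer does not measure the rate of its synthesis. In CMP 1 and 2 it was 29687 CPM. Cytoplasmic ribosomal protein genes summed to 295408, 238130 and 232288 CPM, and the median log2 ratio of 79 of them to CMP was 0.27 and −0.03. In CMP 1 and 2 they summed to 284435 CPM, and against these cells the medians were 0.0008 and −0.29. LT-HSC 1 to 16 had the highest summed level of ribosomal protein genes and the lowest of the 32 genes. Over the 58 cells r between these sums was −0.40 (rho −0.40), a value that spans the groups. Within LT-HSC 1 to 16, LT-HSC 17 to 34 and CMP it was −0.11, −0.12 and −0.31 (rho 0.04, −0.17 and −0.25).

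Other ribosome assembly factors, a list of 96 genes of which 95 had at least 20 counts, had a median below CMP, with a share of 2-fold lower genes close to that of all genes. Their median log2 ratio for all LT-HSC was −0.51, with 28 of 95 at least 2-fold lower (all genes 28.1%) and 4 higher (22.7%), and −0.55 and −0.42 for the blocks. With CMP 1 and 2 as reference it was −0.10, with 25 lower and 23 higher, against 22% and 46.2% of all genes and their median of 0.70. The most counted were Rsl1d1 (276 and 324 CPM in all LT-HSC and CMP) and Imp3 of the U3 particle (326 and 232 CPM). Lowest were Urb1, the partner of Urb2, at 0.403 and 9.20 CPM (log2 ratio −4.36, or −5.92 without LT-HSC 31), and Bms1, a GTPase of the small subunit, at 4.03 and 56.8 CPM (−3.80, or −4.45 without LT-HSC 28). Counts of Urb1 were present in 2 LT-HSC and 13 CMP, so both genes of the Urb1 and Urb2 pair were nearly uncounted in LT-HSC. Highest were Surf6 (2.405, or 3.95 without CMP 3) and Tsr2 (2.11, or 1.51 without LT-HSC 27).

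In CMP the summed level of the 32 genes ran together with that of these 95 factors. Pearson's r was 0.85 over 24 CMP (rho 0.78, r without the 2 farthest cells 0.77), against 0.22 over 16 cells of LT-HSC 1 to 16 (rho 0.22) and 0.36 over 18 of LT-HSC 17 to 34 (rho 0.21). In the LT-HSC blocks r without the 2 farthest cells was 0.074 and 0.075, so the relation there rests on those cells. The CMP sums of the set spanned 5331 to 12593 CPM and those of the other factors 3913 to 10527 CPM. In LT-HSC many of the factors rest on few counts per cell, and the difference between these correlations was not tested.

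**Figure D5:**
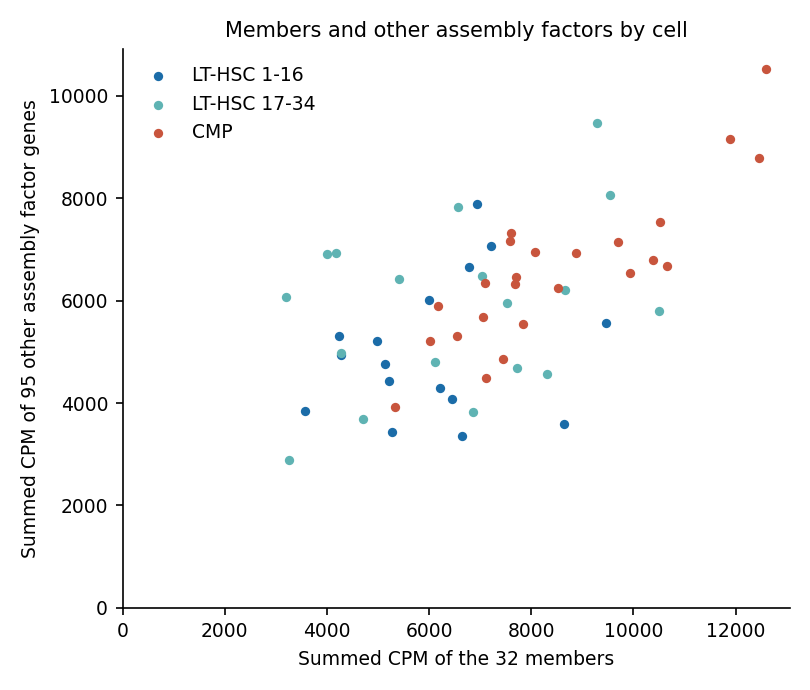
Summed CPM of the 32 genes (x axis) against summed CPM of 95 other ribosome assembly factors (y axis), a point for each cell. CMP lie along a rising band (r 0.85 over 24 cells), while the points of both LT-HSC blocks scatter (r 0.22 and 0.36).

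The partners of RNA polymerase I had no common direction. The 15 genes for its cofactors and remaining subunits had a median log2 ratio of 0.13 for all LT-HSC. Of these, 1 was at least 2-fold lower (all genes 28.1%) and 2 higher (22.7%). The medians were −0.40 for LT-HSC 1 to 16 and 0.39 for LT-HSC 17 to 34. For all LT-HSC against CMP 1 and 2 the median was 0.60, beside 0.70 over all genes. Ubtf, which opens rRNA genes for transcription, was the lowest, with 35.2 and 176 CPM in all LT-HSC and CMP (log2 ratio −2.32, interval −2.49 to −2.15), and −1.20 against CMP 1 and 2. Rrn3, the initiation factor, was next (−0.89, or −1.74 without LT-HSC 33), but stood at 4.80 against CMP 1 and 2. Taf1b and Taf1a of the promoter factor SL1 were the highest, at 1.20 (1.89 without CMP 9) and 1.07 (2.07 without CMP 18). The shared subunits Polr2l and Polr2f were the most counted, with ratios of −0.08 and −0.14. For 11 RNA polymerase III subunits the median was 0.13, and Polr3gl had the highest ratio (2.50, or 3.34 without CMP 23), followed by Polr3f (0.48, or 2.48 without CMP 4). Polr3g (−0.75, or −2.08 without LT-HSC 33) and Polr3d (−0.65, or −1.24 without LT-HSC 16) had the lowest, and Polr3k, the most counted, stood at −0.42.

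Myc and its paralogue Mycn differed between the blocks in opposite ways. Myc stood at 124 CPM in LT-HSC 1 to 16, 340.4 in LT-HSC 17 to 34 and 292 in CMP, log2 ratios to CMP of −1.23 and 0.22. Mycn stood at 176, 47.2 and 21.4 CPM, ratios of 3.04 and 1.14, the latter 0.44 without LT-HSC 34. Added, the 10 counted genes of the Myc network came to 447, 453 and 575 CPM, and within a group their sum had an r of 0.16, −0.06 and 0.26 with the sum of the 32 genes (rho −0.04, −0.17 and 0.32). Without the 2 farthest cells r was 0.37, −0.41 and 0.23. Of the antagonists and partners, Mnt had 1.31 and 45.02 CPM in all LT-HSC and CMP (−5.05, or −6.62 without LT-HSC 2), Mga at 31.1 and 109 CPM (−1.81), Max at 6.95 and 26.9 CPM (−1.95, or −4.37 without LT-HSC 16) and Mlx at 14 and 28.9 CPM (−1.04, or −1.84 without LT-HSC 17). Mxd1, Mxd3, Mxd4 and Mxi1 had ratios of −0.93, −0.10, −1.10 and −0.01, which without 1 cell each became −0.19, −5.12, −3.74 and −0.70. CMP 22 was that cell for Mxd1, LT-HSC 17 for Mxd3 and Mxi1, and LT-HSC 28 for Mxd4. Against CMP 1 and 2 several turned: the ratio of all LT-HSC was 0.22 for Mnt, 2.59 for Max, 4.88 for Mxd1 and 4.04 for Mxi1. The median of the 10 genes was then 0.76 in place of −0.99, beside 0.70 over all genes.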

How the data were processed

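Single cells were sorted and their RNA was read by a modified Smart-seq2 protocol with a molecular identifier and 3' capture, per the labels' protocols. The values are counts, deposited by the authors in 1 table of gene symbols by cells, and whether these are molecules or reads is not stated. The submitters' processing notes name mm10, TopHat2 2.0.12, HTSeq and Seurat 2.0, without role or order. Each of the 58 columns was matched to a cell by its title, and no cell was removed. The highest correlation between 2 cells was 0.72, and no 2 columns were identical. Doublets were not called. Some cells may come from the same animal, which no label shows.

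Counts were summed by group and divided by the group's total, with exact Poisson intervals, and ratios carry exact conditional binomial intervals. Percentages of all genes are over 10937 symbols with at least 20 counts. A group without a count was set to 3 counts over the group. With this floor the median between LT-HSC blocks was −0.045 in place of −0.058. Intervals were checked on simulated Poisson counts, the model they assume. That check cannot show how they hold for counts that lie in few cells or are reads. Gene positions come from GENCODE M21, promoters from RefSeq. Python 3.11.15, pandas 2.3.3 and scipy 1.17.1 were used. The genes and lists were chosen with earlier results of these data known.

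All 32 genes are named. Values by cell are given for RNA polymerase I genes, the 8 most counted genes and the 3 highest and lowest ratios of each comparison (at least 50 counts), and for some others. For other lists, the 2 most counted genes and the 2 largest ratios either way are named, and all Myc network genes. Some genes that this rule or the marker lists would name are not reported here.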

Additional observations from a re-analysis of the deposited data

How the results depend on the processing

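Other settings were another added count, other minimum counts, an equal weight for each cell (mean CPM), scaling by median-of-ratios, totals without ribosomal protein genes, thinning, leaving out shallow cells, CMP 1 and 2 left out, and only cells without an Xist count. Of 114 such values, 102 stayed close to the printed one, 11 moved and 1 changed sign. Genes of the set at least 2-fold lower in LT-HSC than in CMP numbered 7 (all genes 28.1%). They numbered 3 by mean CPM (27.3%), 2 after thinning (28.5%) and 4 with only cells without Xist (22%). With only those cells 8 in place of 1 were higher, against 46.2% of all genes. For LT-HSC 1 to 16 against CMP the median went from −0.61 to −0.36 with median-of-ratios scaling (all genes −0.12). Genes at least 2-fold higher went from 1 (all genes 22.7%) to 0 by mean CPM, 2 with median-of-ratios scaling and 5 without Xist (39.4%). For LT-HSC 17 to 34 against CMP, 8 lower (all genes 34.5%) became 5 after thinning and 5 without Xist (27.7%). In that comparison 1 higher (20%) became 7 without Xist (39.5%). The median between blocks changed sign, from −0.058 to 0.055, with totals that leave out ribosomal protein genes. The causes were not tested. Leaving out each cell in turn gave medians of −0.50 to −0.33 for all LT-HSC against CMP, −0.71 to −0.54 for LT-HSC 1 to 16, −0.48 to −0.19 for LT-HSC 17 to 34 and −0.24 to −0.060 between blocks. Counts of genes lower then ran from 6 to 8, 10 to 12, 6 to 9 and 6 to 8, and of genes higher from 0 to 1, 0 to 2, 0 to 1 and 3 to 5. The cells behind the extremes include LT-HSC 24 (0 of all LT-HSC and 0 of LT-HSC 17 to 34 higher than CMP without it, and 5 higher between blocks), LT-HSC 4 and 10 (0 and 2 of LT-HSC 1 to 16 higher), LT-HSC 17 and 33 (medians of −0.19 and −0.48) and LT-HSC 15 (−0.24). Single cells moved the ratio of 7, 8, 12 and 14 of the 32 genes by more than 1.5-fold in these comparisons. No paired analysis was possible because the cell numbers of the gates name cells and each gate is 1 sample. Depth limits the genes with few counts, above all Urb2, Polr1a, Utp20, Rrp12 and Gar1.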

Other observations

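Of 4342 other genes with at least 500 counts, those whose CPM ran most closely with the summed level of the 32 genes over the 58 cells were Pa2g4, a growth-regulated nucleolar protein (rho 0.73), the mitochondrial chaperonin gene Hspe1 (0.65), the polyamine enzyme gene Srm (0.64), the cochaperone gene Ptges3 (0.60) and the RNA-binding protein gene Hnrnpf (0.60). These values span the groups and cells of unequal depth. Within CMP the rho was 0.59, 0.58, 0.55, 0.57 and 0.25, and within LT-HSC 1 to 16 it was 0.46, 0.44, 0.24, 0.04 and 0.34. Within LT-HSC 17 to 34 it was 0.76, 0.66, 0.53, 0.49 and 0.61. Srm, which makes spermidine, was at 44.6 CPM in LT-HSC 1 to 16, 49.8 in LT-HSC 17 to 34 and 202 in CMP.

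Genes of the RNA exosome, which trims rRNA, had a median log2 ratio of −0.25 for all LT-HSC against CMP. It was −0.58 for LT-HSC 1 to 16 and −0.06 for LT-HSC 17 to 34. For all LT-HSC against CMP 1 and 2 it was 0.19, beside 0.70 over all genes. Exosc5 and Exosc7 were the most counted of the 13, with ratios of −0.25 and 0.49. Dis3, a nuclease of the complex, was lowest, with 14.7 and 52.95 CPM in all LT-HSC and CMP (−1.85, or −3.85 without LT-HSC 22), but against CMP 1 and 2 its ratio was 2.44. Exosc8 followed at −0.78, and Exosc6 and Mphosph6 were highest at 1.45 and 0.89.

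Targets of p53, which can respond to failing ribosome assembly, had no common direction. The median of 9 genes was 0.30 for all LT-HSC, −0.68 for LT-HSC 1 to 16 and 0.56 for LT-HSC 17 to 34. For all LT-HSC against CMP 1 and 2 it was 2.34, beside 0.70 over all genes. Bax and Mdm2 were the most counted, with ratios of 0.30 and −0.02. Cdkn1a, the p21 inhibitor, had 15.8 and 69.9 CPM in all LT-HSC and CMP (−2.14, or −2.80 without LT-HSC 17), from 6 LT-HSC and 20 CMP, and against CMP 1 and 2 its ratio was 3.77. Trp53inp1 was lowest at −3.17 (−5.19 without LT-HSC 31, and 2.26 against CMP 1 and 2), and Zmat3 highest at 2.51, which turned to −2.51 without LT-HSC 18.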
